A study of Mus musculus with 14 samples.

Results

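Of 14010 promoter bins, defined as 10 kb bins that hold an end of a protein-coding gene and were marked as an H3K4me3 peak in at least 1 deposited list, 8 are described here across the 4 groups of cells. They are the bins of Nuak1, Cemip, Abtb2, Dnpep, Stox2, Adcy3, Alg10b and Nedd4l. They were chosen from the MAPS loop lists of embryonic stem cells (ESCs), in which each of them held 0 loops after auxin and 13 to 17 without it. A loop is a pair of 10 kb bins whose contacts exceeded the background expected by a caller. The loss in ESCs is therefore what defined the bins and is given as a description, while the rule names no value of the lists of neural precursor cells (NPCs). Why these 8 were taken among all bins with such a loss is not part of the rule, and results of all lists were known when they were chosen.

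The 8 samples analysed came from F123 mouse cells with an auxin-inducible degron on CTCF (CTCF-AID), a tag that leads to breakdown of the protein when auxin is added. The groups were ESC auxin (48 h of auxin), ESC control (0 h), NPC auxin (day 4 of neural differentiation performed with auxin) and NPC control (day 4 without auxin), so the controls carried the degron as well. H3K4me3 PLAC-seq, which enriches proximity-ligated DNA carrying the promoter mark H3K4me3, had been done on 2 samples per group, and for every group there was 1 list by the caller MAPS and 1 by FitHiChIP. No difference between groups therefore has a replicate check, no test between groups was possible, and counting error is all that the 95% intervals cover. The 6 samples with dCas9, of 14 in all, were not analysed here. The labels do not say whether the cells were 1 clone.

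CTCF is a zinc finger protein that binds an oriented DNA motif and stops the cohesin complex as it extrudes chromatin loops. Paired CTCF sites in convergent orientation form many of the loop anchors and domain boundaries of mammalian chromosomes. Promoters also contact enhancers and other promoters, and such contacts can lie inside the loops that CTCF and cohesin form.

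In mm10 the bins start at 84440001 on chromosome 10 (Nuak1), 84080001 on chromosome 7 (Cemip), 103560001 on chromosome 2 (Abtb2) and 75310001 on chromosome 1 (Dnpep). The other bins start at 47410001 on chromosome 8 (Stox2), 4130001 on chromosome 12 (Adcy3), 90220001 on chromosome 15 (Alg10b) and 64880001 on chromosome 18 (Nedd4l). Each bin holds the end of its own gene and of no other protein-coding gene in the RefSeq table. The genes differ in length, with 6.24 kb for Alg10b and 9.09 kb for Dnpep, against 333 kb for Nedd4l and 234 kb for Stox2.

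The genes behind the 8 bins encode proteins of different kinds. Nuak1 is an AMPK-related protein kinase, Cemip acts in hyaluronan breakdown, Abtb2 encodes a protein with ankyrin repeats and a BTB domain, and Dnpep is an aspartyl aminopeptidase. Stox2 encodes a storkhead-box protein, Adcy3 an adenylyl cyclase that makes cyclic AMP, Alg10b a glucosyltransferase that completes the N-glycan precursor and Nedd4l an E3 ubiquitin ligase of the HECT type.

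RefSeq promoter sequences of GRCm38.p6 were at hand for 7 of the 8 genes, and for 6 of them a listed start lay inside the bin. For Stox2 the listed start lay outside it. The 250 bases before the start are shown for Adcy3 and Abtb2, the bins without any MAPS loop in NPC auxin, and for Nuak1 and Alg10b, which kept loops there. All are written 5′ to 3′ on the strand of the gene, and capitals mark a match to the core of the CTCF motif, searched on both strands as CC, any 3 bases, AGG, any 1 base and GGC. Adcy3 lies on the plus strand (chr12:4133147-4133396), Abtb2 on the plus strand (chr2:103566060-103566309), Nuak1 on the minus strand (chr10:84440669-84440918) and Alg10b on the plus strand (chr15:90224061-90224310).
Adcy3: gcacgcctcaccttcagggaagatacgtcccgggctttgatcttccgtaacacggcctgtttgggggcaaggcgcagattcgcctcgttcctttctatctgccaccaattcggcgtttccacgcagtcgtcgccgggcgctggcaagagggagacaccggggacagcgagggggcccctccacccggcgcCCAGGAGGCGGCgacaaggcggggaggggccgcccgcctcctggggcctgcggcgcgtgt
Abtb2: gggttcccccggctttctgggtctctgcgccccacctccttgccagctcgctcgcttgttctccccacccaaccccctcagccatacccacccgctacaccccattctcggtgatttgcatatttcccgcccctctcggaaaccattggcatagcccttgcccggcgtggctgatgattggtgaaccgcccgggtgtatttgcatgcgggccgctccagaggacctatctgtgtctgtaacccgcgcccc
Nuak1: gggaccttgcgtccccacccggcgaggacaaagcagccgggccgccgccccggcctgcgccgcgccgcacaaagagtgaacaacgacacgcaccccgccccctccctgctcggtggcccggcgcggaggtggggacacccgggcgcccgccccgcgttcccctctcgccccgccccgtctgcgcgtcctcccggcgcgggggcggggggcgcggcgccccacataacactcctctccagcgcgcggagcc
Alg10b: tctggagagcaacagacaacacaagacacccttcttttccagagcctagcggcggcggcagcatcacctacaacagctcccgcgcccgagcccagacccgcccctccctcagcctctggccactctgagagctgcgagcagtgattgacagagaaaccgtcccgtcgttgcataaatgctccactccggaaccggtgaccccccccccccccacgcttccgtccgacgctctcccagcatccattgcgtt

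A match to the motif was found in 1 of the 9 promoter sequences of the member genes, that of Adcy3, where it began 60 bases before the start on the plus strand. Among 32851 RefSeq promoters of the same length 964 held a match, or 2.93%. The other 8 windows hold no such letters, which says nothing of CTCF binding elsewhere in the 10 kb bins. The median GC content of the 9 windows was 62.8%, against 52.4% over all promoters. The 9 windows include 2 each of Dnpep and Adcy3 and the Stox2 start outside its bin. All promoters were taken whether or not their bin had a peak mark, so neither the motif share nor the GC content is a like comparison. Over whole bins the GC content was 44.8% at Alg10b to 52.3% at Dnpep, around the median of 47.3% over promoter bins.

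Over all chromosomes MAPS listed 27610 loops in ESC auxin, 56714 in ESC control, 41667 in NPC auxin and 82861 in NPC control, and FitHiChIP listed 22705, 33475, 24836 and 44892 in those groups. The totals of contacts behind the FitHiChIP lists lay between 47519917 and 59961568. The identity of the cells can be read only from peak marks: 6 of 8 ESC marker genes were marked in the NPC lists and 7 of 8 in the ESC lists, while all 8 NPC marker genes were marked in both. Of 7 marker genes of endoderm, mesoderm and neurons, 6 were marked in the NPC lists and 7 in the ESC lists. These marks do not separate the cell types. In each cell type the auxin and control lists carry the same marks, so they do not show H3K4me3 after auxin either.

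In ESCs the 8 bins held 0 MAPS loops after auxin, as the choice required, and 117 in control (96.8 to 140). Cemip and Nuak1 each held 0 loops in ESC auxin and 17 in ESC control, and Abtb2 held 0 in ESC auxin and 16 in ESC control. Dnpep and Stox2 held 0 in ESC auxin and 14 in ESC control, and Adcy3, Alg10b and Nedd4l held 0 in ESC auxin and 13 in ESC control. Of the 1121 promoter bins with at least 10 loops in ESC control, 61 held none in ESC auxin, or 5.44%, which is the background of the choice itself. There were 19 promoter bins that held 0 loops in ESC auxin and at least 13 in ESC control, of which 11 are not among the 8. Those 11 all had 0 in ESC auxin, and ESC control had 26 at Tgfb3, 22 at the bin shared by Evx2 and Hoxd13 and 18 at Nfil3, so the 8 bins are not the only ones with this loss. Just below the 13 loops lay 11 bins with 0 in ESC auxin and 12 in ESC control, such as those of Aph1b and Abcc12.

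**Figure D1:**
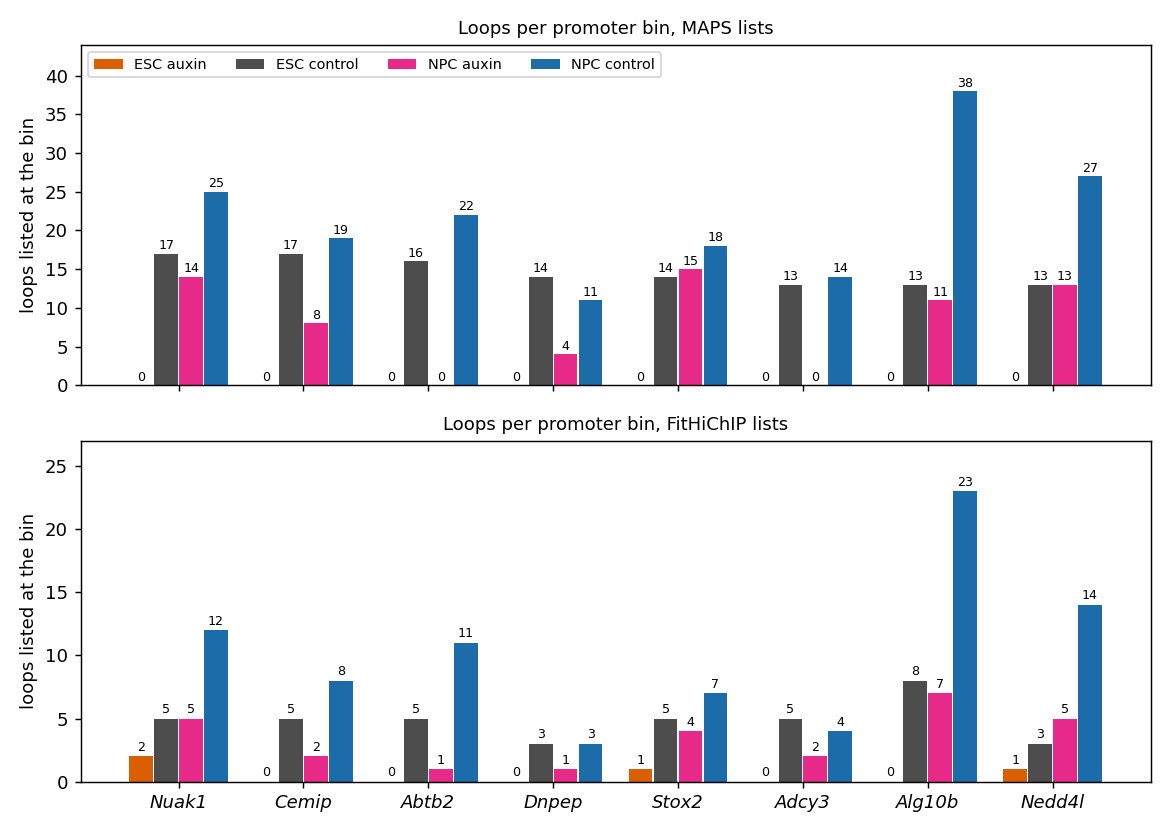
Loops listed at each of the 8 promoter bins in the MAPS lists (upper panel) and the FitHiChIP lists (lower panel); the 4 bars of a gene are ESC auxin, ESC control, NPC auxin and NPC control, the vertical axis counts loops and each bar stands for 1 list, with no error. All 8 MAPS bars of ESC auxin are at 0, while in NPC auxin 6 of the 8 bins held 4 to 15 MAPS loops and Abtb2 and Adcy3 held 0.

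FitHiChIP listed 4 loops at the 8 bins in ESC auxin and 39 in ESC control, or 10.3%, against 67.8% for the whole list. The bins were chosen on MAPS calls from the same samples, so the FitHiChIP counts are not an independent check of the loss. In ESC auxin it listed 2 at Nuak1, 1 at Stox2 and 1 at Nedd4l, against 5, 5 and 3 in ESC control, and the other 5 bins had 0 in ESC auxin and 3 to 8 in ESC control. The share of promoter bins without a FitHiChIP loop in ESC auxin was not counted. Of the 4 loops in ESC auxin, 3 were also in ESC control. These were 75% of the 4 and 7.69% of the 39, against 63.9% and 43.3% for the whole lists. Contacts at these 3 pairs hardly differed. The Nuak1 pair at 420 kb had 18 contacts in ESC auxin and 20 in ESC control, and the Nedd4l pair with Nars, an asparaginyl-tRNA synthetase gene 370 kb away, had 23 in ESC auxin and 24 in ESC control. The Stox2 pair at 20 kb, inside the gene, had 207 contacts in ESC auxin and 205 in ESC control. The remaining loop of ESC auxin joined Nuak1 with the peak bin of 1500009L16Rik 720 kb away with 14 contacts. It was not listed in ESC control, and in NPC control both callers listed it, MAPS with 26 contacts and FitHiChIP with 24.

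The bins themselves were still covered after auxin where coverage can be read. FitHiChIP gives reads per anchor, and only for anchors with a loop. Reads were 3138 in ESC auxin and 3224 in ESC control at Nuak1, 6766 in ESC auxin and 6884 in ESC control at Stox2, and 5270 in ESC auxin and 4613 in ESC control at Nedd4l. For the other 5 bins ESC auxin coverage is not given, because a bin without a loop has no line. No loop in a list thus means that no pair passed the thresholds (for MAPS at least 12 contacts, a ratio to background of at least 2.00 and an FDR under 0.01), not that contacts were absent. When the bins on either side were counted too (30 kb in all), MAPS listed 1 loop in ESC auxin, beside Nedd4l.

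The lost ESC loops had a longer median distance than the whole list and a lower median contact count. Their median distance was 320 kb (range 50 to 800), against 230 kb over all ESC control loops. Their median contact count was 22, against 26 over the list, the median ratio to background 3.10 against 2.91, and the median FDR 0.00028 against 0.00013. By FDR, 15 of the 117 loops (12.8%) lay in the strongest of 5 equal classes of the list. The weakest class held 20 (17.1%), and the class next to the weakest held the most, 31 (26.5%). In the strongest class 45.8% of all loops were listed again in ESC auxin, and in the weakest class 11.6% were. The bins were chosen for holding no loop in ESC auxin, so a low share in the strongest class is partly built into the choice. Loops of the same bin were often neighbours, so that Cemip's 17 loops formed 6 clusters of adjacent partner bins, Abtb2's 16 formed 8 and Nuak1's 17 formed 10.

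The partners lay on 1 side of the promoter at 4 of the 8 bins, namely Nuak1, Abtb2, Adcy3 and Alg10b, against 53.1% of the 1121 promoter bins with at least 10 ESC control loops. Of the 117 partners, 78 lay on the side of the gene body and 39 on the other side. Within the own gene lay 11 partner bins, within other protein-coding genes 62 and in no protein-coding gene 44. A peak mark was carried by 26 of the 117 partners (22.2%, 15.1 to 30.8). Of all ESC control loops, 26.4% had peaks at both anchors. That value is a share of loops, while the share of partners is seen from promoter bins that were themselves peak-marked. The values are therefore not a like comparison. The share of marked partners seen from all peak-marked promoter bins was not counted. After auxin, 28 of the 117 partner bins (23.9%, 16.5 to 32.7) anchored a loop to some other bin in ESC auxin. Among the 27 of them with a peak mark in any of the 8 lists, 14 did (51.9%, 31.9 to 71.3). Over all 40700 anchor bins of ESC control the share was 43.7%. Those bins include both anchors of every loop, peak-marked promoters among them, so they are not the same kind of bin as the partners. The rule leaves every partner without its loop to the member in ESC auxin, so these shares are given as a description.

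**Figure D2:**
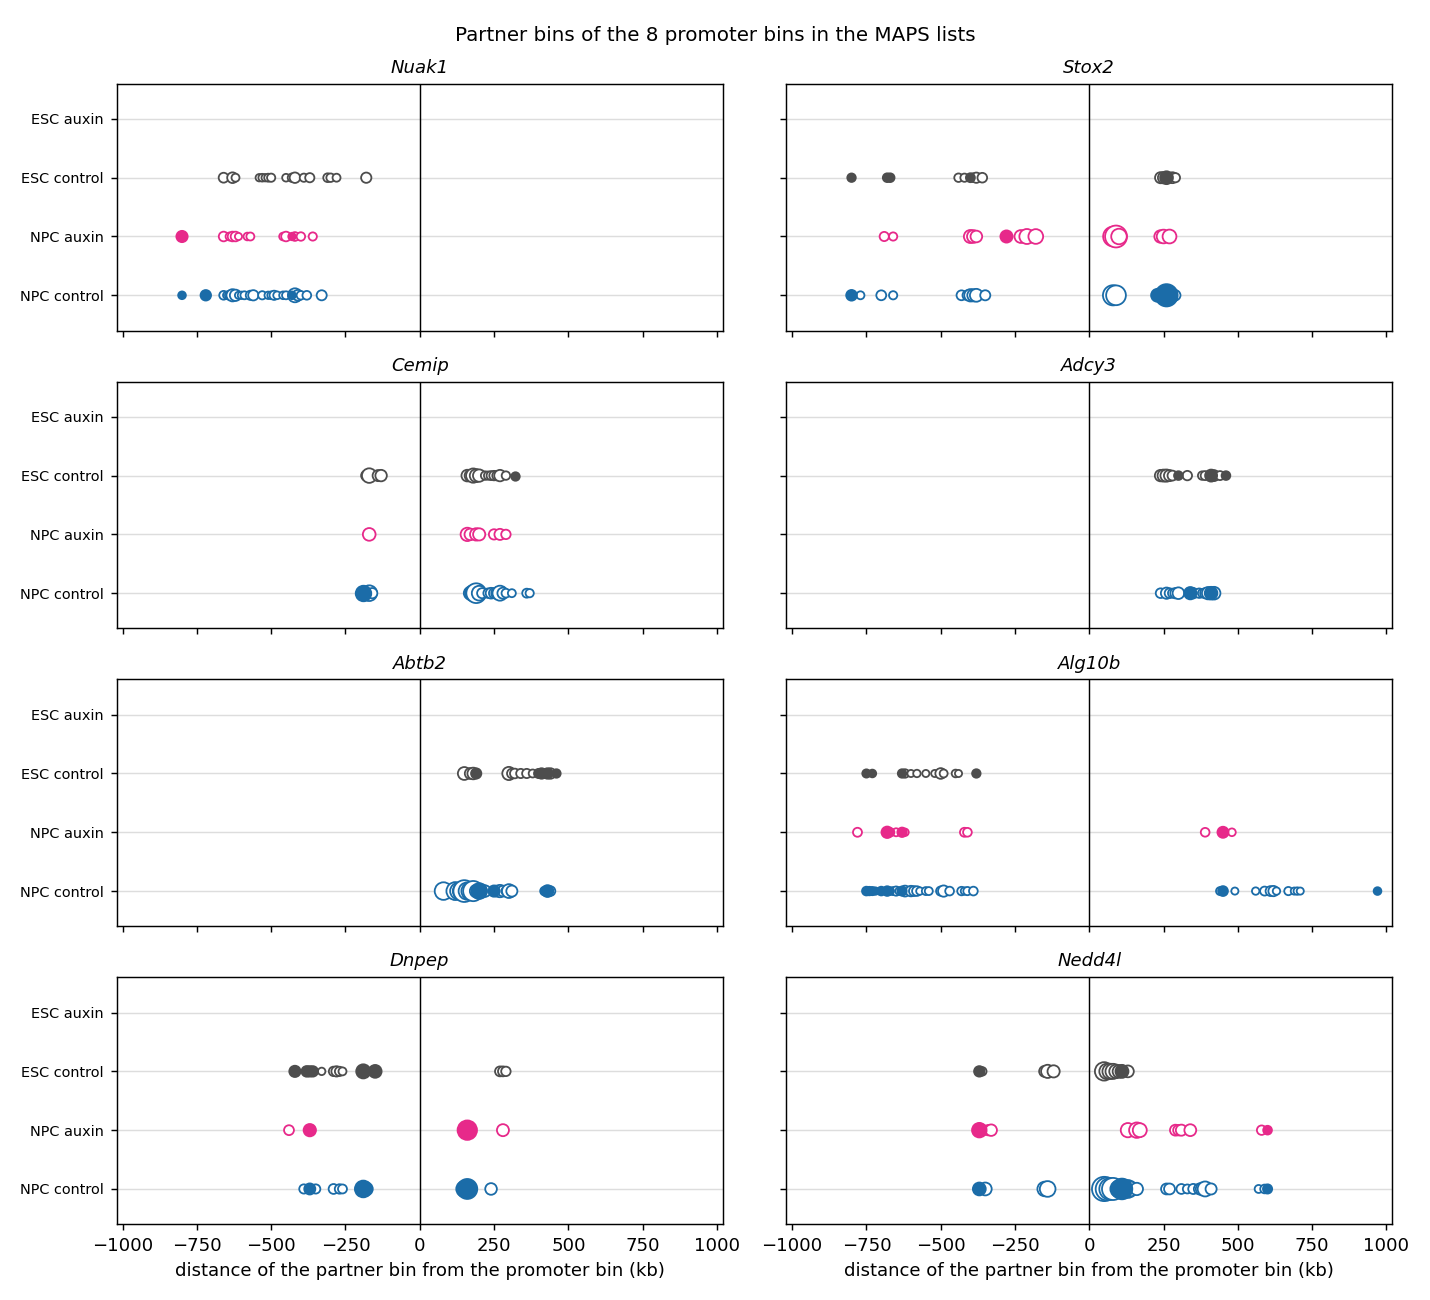
Positions of the MAPS partner bins of each promoter bin, with the distance from the promoter bin in kb on the horizontal axis (negative at lower coordinates) and 1 row per list in each of 8 panels. Each circle is 1 loop, larger circles have more contacts and filled circles are partner bins with an H3K4me3 peak mark; the rows of ESC auxin are empty, Nuak1 kept its partners at lower coordinates in NPC auxin and the NPC auxin rows of Abtb2 and Adcy3 are empty.

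Nuak1 made contacts beyond the far end of its gene, in a stretch where its ESC partners met no protein-coding gene. Its 17 ESC control loops reached 180 to 660 kb to lower coordinates on the side of the gene body of this minus-strand gene. The strongest had 27 contacts at 630 kb, and the next had 26 at 420 kb. In NPC auxin 14 loops reached 360 to 800 kb to the same side, and in NPC control 25 loops reached 330 to 800 kb. The contacts at 420 kb were 18 in NPC auxin and 46 in NPC control (log2 ratio -1.35), and those at 630 kb were 22 in NPC auxin and 35 in NPC control. On the same side, the pair with the peak bin of Appl2, an endosomal adaptor gene 800 kb away, had more contacts in NPC auxin, 30, against 14 in NPC control. By MAPS, Nuak1 thus kept loops on the same side in NPC auxin, with 12 of the 25 pairs of NPC control listed again. FitHiChIP listed 5 loops in NPC auxin and 12 in NPC control, and 3 of those 12 pairs were listed again. In NPC auxin 1 of its 5 loops went to the other side, to the peak bin of Polr3b 180 kb away, with 41 contacts.

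Cemip contacted the neighbouring gene Arnt2, which encodes a bHLH-PAS transcription factor. Of its 17 ESC control loops, 13 ended in Arnt2 at 160 to 320 kb, and 2 in Cemip itself. The strongest ESC control pair had 50 contacts, 170 kb away on the other side, in no protein-coding gene. In NPC auxin 7 of 8 loops ended in Arnt2, and in NPC control 13 of 19 did. At the strongest pair of NPC control, 190 kb away in Arnt2, 36 contacts were counted in NPC auxin and 92 in NPC control (log2 ratio -1.35), and 39 in ESC control. The pair at 170 kb on the other side had 38 contacts in NPC auxin and 58 in NPC control. FitHiChIP listed none of its 8 NPC control pairs of Cemip in NPC auxin, where its 2 loops went to the peak bins of Abhd17c, 60 kb away, and of Mex3b, 1220 kb away.

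Abtb2 lost its MAPS loops in both cell types. All 16 ESC control partners lay at higher coordinates, 150 to 460 kb away, at the end of Abtb2 itself, in the RNA acetyltransferase gene Nat10 and around Lmo2, a transcriptional cofactor gene, while 6 lay in no protein-coding gene. Partner bins with a peak mark were 1 in Nat10, 2 in Lmo2 and 2 at 4931422A03Rik, of which 1 also held an end of Fbxo3. In NPC control 22 loops lay on the same side at 80 to 440 kb. The strongest, at 150 kb and the end of Abtb2, had 112 contacts in NPC control and 39 in ESC control, and it was not listed in NPC auxin. MAPS listed 0 loops in NPC auxin against 22 in NPC control, with an upper bound of 18.3% for the ratio. FitHiChIP listed 1 loop in NPC auxin and 11 in NPC control, and that 1 loop of NPC auxin went to the opposite side, to the peak bin of the catalase gene Cat 80 kb away, with 106 contacts.

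Dnpep was the bin with the most peak-marked partners among the ESC control loops, 6 of 14. They included the bins of Ihh, a hedgehog ligand gene, at 360 and 370 kb, of Cryba2 at 420 kb and of Cfap65 at 380 kb, and Zfand2b at 150 kb. The strongest ESC control pair had 47 contacts, at the bin shared by the DNA repair gene Nhej1 and Slc23a3, 190 kb away. That pair had 66 contacts in NPC control and was not listed in NPC auxin. On the other side, the peak bin of Asic4, Chpf and Tmem198, 160 kb away, had 89 contacts in NPC auxin and 94 in NPC control, and MAPS did not list it in ESC control. The pair with Ihh at 370 kb was listed in 3 of the 4 groups, with 36 contacts in NPC auxin, 29 in NPC control and 26 in ESC control. MAPS listed 4 loops at Dnpep in NPC auxin and 11 in NPC control.

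Of the 8 bins Stox2 had the most NPC auxin loops relative to NPC control, with 15 in NPC auxin and 18 in NPC control, and 8 of the 18 pairs were listed in both. Its 14 ESC control partners lay at 240 to 800 kb, 9 at lower and 5 at higher coordinates. They included the transcription factor gene Irf2 at 670 and 680 kb, 6 bins in Enpp6 at 360 to 440 kb, and Ing2, a chromatin reader gene. The pair with the peak bin of Ing2 at 260 kb was the strongest of NPC control with 117 contacts and of ESC control with 39. MAPS did not list it in NPC auxin, while it listed both bins next to it (44 and 45 contacts at 250 and 270 kb), and FitHiChIP counted 90 contacts in NPC auxin and 112 in NPC control. Both NPC lists also had a pair of loops with Trappc11, a membrane traffic gene, at 80 and 90 kb. These had 92 and 113 contacts in NPC auxin, against 96 and 92 in NPC control, and MAPS did not list them in ESC control. In NPC auxin 3 loops ended within Stox2 itself, which MAPS listed in no other group.

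Adcy3 also had no MAPS loop in NPC auxin. Its 14 NPC control partners, at 240 to 420 kb, and its 13 ESC control partners, at 240 to 460 kb, all lay at higher coordinates. In each of these lists 7 ended in Ncoa1, which encodes a steroid receptor coactivator, and 1 in ESC control ended in the peak bin of the endocytic scaffold gene Itsn2. The strongest pair of ESC control, 260 kb away in Ncoa1, had 30 contacts in NPC control and 35 in ESC control. In NPC control the pairs at 410 and 420 kb had 38 contacts each, and they had 34 and 28 in ESC control. MAPS counted 0 loops in NPC auxin against 14 in NPC control, with an upper bound of 30.1% for the ratio. FitHiChIP listed 2 in NPC auxin and 4 in NPC control, and the pair at 410 kb, with a peak-marked bin in no protein-coding gene, had 30 contacts in NPC auxin and 39 in NPC control.

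Alg10b had the largest gain of loops of the 8 bins, with 38 in NPC control and 13 in ESC control. Its 13 ESC control partners all lay at lower coordinates, away from the gene, at 380 to 750 kb, and the strongest had 27 contacts at 500 kb. Partner bins with a peak mark held Arsa (a lysosomal sulfatase gene, 750 kb), Shank3 (a postsynaptic scaffold gene, 730 kb), Rabl2 (630 kb) and the synaptotagmin gene Syt10 (380 kb). In NPC control 38 loops were listed, 25 at lower and 13 at higher coordinates, among them Cpne8 at 450 kb and Abcd2 at 970 kb. In NPC auxin 11 were listed, 8 at lower and 3 at higher coordinates. The pair with Shank3 at 680 kb had 31 contacts in NPC auxin and 22 in NPC control, and the pair with Cpne8 had 29 in NPC auxin and 23 in NPC control. The pair at 620 kb had 13 contacts in NPC auxin and 28 in NPC control (log2 ratio -1.11).

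Nedd4l had the shortest ESC loops, with a median of 110 kb, since 8 of 13 ended inside this long gene at 50 to 130 kb. The strongest was at 50 kb with 139 contacts in NPC control and 80 in ESC control, and it was not listed in NPC auxin. MAPS listed no pair under 130 kb in NPC auxin, where loops inside the gene lay at 130 to 310 kb. The pair at 130 kb had 48 contacts in NPC auxin and 75 in NPC control. The pair with the peak bin of Nars at 370 kb had 50 contacts in NPC auxin and 39 in NPC control, and 26 in ESC control. FitHiChIP counted 54 contacts in NPC auxin and 102 in NPC control at a peak bin inside Nedd4l, 110 kb away. MAPS loops at Nedd4l numbered 13 in NPC auxin and 27 in NPC control.

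Summed over the 8 bins, MAPS listed 65 loops in NPC auxin (50.2 to 82.8) and 174 in NPC control (149 to 202), or 37.4% (27.6 to 49.9), against 50.3% for the whole list. FitHiChIP listed 27 in NPC auxin and 82 in NPC control, or 32.9% (20.5 to 51.4), against 55.3% for the whole list. Adjacent loops are not independent, so these intervals are too narrow. NPC auxin loops as a percentage of NPC control loops ran from 0% at Abtb2 and Adcy3 over 28.9% at Alg10b, 36.4% at Dnpep, 42.1% at Cemip, 48.1% at Nedd4l and 56.0% at Nuak1 to 83.3% at Stox2. Neighbours in this order do not differ beyond their counting intervals. These ran from 0 to 30.1 for Adcy3, from 13.3 to 57.8 for Alg10b, from 26.9 to 112 for Nuak1 and from 39.1 to 175 for Stox2. Over the 4768 promoter bins with at least 5 NPC control loops, the quartiles of this share were 20, 43.8 and 72.7%.

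**Figure D3:**
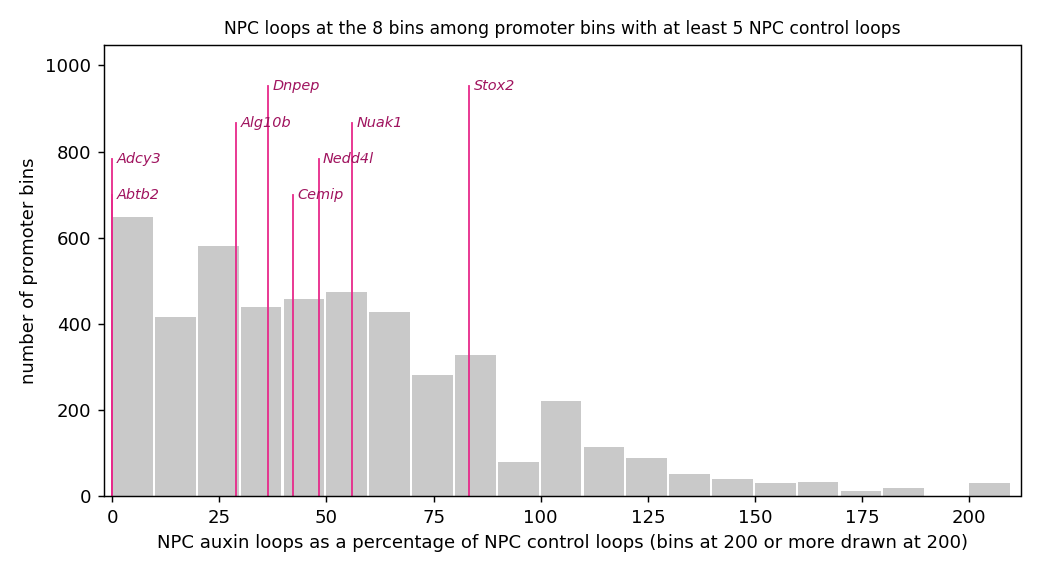
NPC auxin loops as a percentage of NPC control loops (horizontal axis, MAPS) over the 4768 promoter bins with at least 5 NPC control loops, as a histogram of the number of bins, with the 8 bins drawn as vertical lines whose heights only separate the names. Abtb2 and Adcy3 lie at 0, 5 bins lie between 28.9 and 56.0 and Stox2 lies at 83.3, around the background median of 43.8.

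At least 4-fold fewer MAPS loops in NPC auxin than in NPC control were found at 2 of the 8 bins, Abtb2 and Adcy3, against 30.9% of the 4768 promoter bins. The same 2 bins had no loop in NPC auxin, against 11.8% of the promoter bins. Fewer loops in NPC auxin than in NPC control were found at 8 of 8 bins, against 86.6%. By FitHiChIP, 6 of the 8 bins had at least 5 NPC control loops, and 2 of these 6, Abtb2 and Cemip, were at least 4-fold lower in NPC auxin, against 22.8% of 2868 promoter bins, and 0 of the 6 had no loop in NPC auxin, against 5.79%. The shares of the 8 bins were thus near the background at this number of bins. Among the 54 promoter bins with at least 10 loops in ESC control, none in ESC auxin and at least 5 in NPC control, 53.7% were at least 4-fold lower in NPC auxin, and the 8 bins, with 2 such bins, are among those 54.

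Reads covering the bins were at similar levels in NPC auxin and NPC control. FitHiChIP gave 8503 in NPC auxin and 8310 in NPC control at Abtb2, and 9127 in NPC auxin and 8147 in NPC control at Adcy3, the bins without a MAPS loop in NPC auxin. Coverage was 14623 in NPC auxin and 14315 in NPC control at Stox2, the highest of the 8, and 5576 in NPC auxin and 5177 in NPC control at Nuak1, the lowest. The medians over promoter bins were 6272 in NPC auxin and 5716.5 in NPC control. The part of coverage in the differences between bins was not tested.

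Contacts could be compared at the pairs that both NPC lists held. MAPS held 43 such pairs at the 8 bins, which were 66.2% of the 65 pairs in NPC auxin and 24.7% (18.5 to 31.8) of the 174 in NPC control, against 53.7% and 27.02% for the whole lists. Contacts were lower in NPC auxin at 19 pairs, higher at 20 and equal at the rest, with a median log2 ratio of 0.00. Over the 22391 shared pairs of the lists the median was -0.07, and 54.2% were lower. The log2 ratio of the total contacts behind the FitHiChIP lists was 0.20, and the ratios above were not scaled by it. No such total was at hand for the MAPS lists, so the FitHiChIP totals were used to scale MAPS contacts. Scaled to the total contacts, 28 of the 43 pairs were lower in NPC auxin and 15 higher, with a median log2 ratio of -0.20, against -0.27 over all shared pairs, of which 75.4% were lower. The direction at these pairs thus depends on the scaling. FitHiChIP held 14 such pairs, 51.9% of 27 in NPC auxin and 17.1% of 82 in NPC control, against 64.6% and 35.8% for the whole lists.

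**Figure D4:**
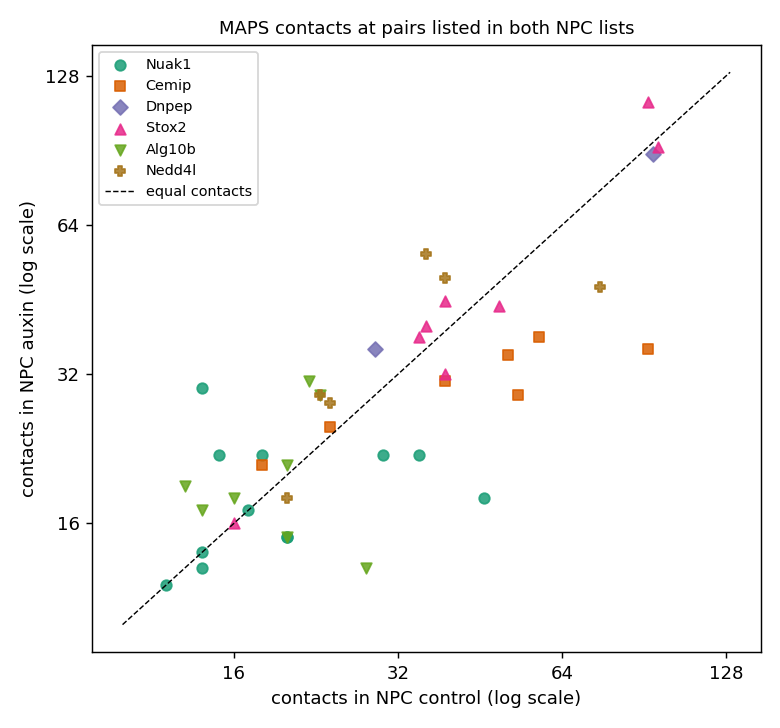
MAPS contacts in NPC auxin (vertical axis, log scale) against NPC control (horizontal axis, log scale) at the 43 bin pairs of 6 promoter bins that both lists held, with 1 symbol per gene and the dashed line at equal contacts. Of the 43 pairs 19 lie below and 20 above the line (28 and 15 when scaled to the total contacts behind the FitHiChIP lists). Farthest below it lie 1 pair of Cemip and 1 of Nuak1 (log2 ratio -1.35 each) and 1 of Alg10b (-1.11), and Abtb2 and Adcy3 have no pair in both lists.

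Most partners of the ESC promoters were partners in NPC control too. Of the 117 ESC control pairs, 72 (61.5%, 52.1 to 70.4) were listed again in NPC control, which were 41.4% of the 174 pairs there, against 50.3% and 34.5% for the whole lists. The 117 pairs formed 61 clusters of adjacent partners and are not independent, so the interval is too narrow. The whole lists hold all loops, not only those of promoter bins rich in ESC control loops, so the shares are not a like comparison. Per bin the share of ESC control pairs ran from 5 of 14 at Dnpep to 11 of 13 at Nedd4l. At the 72 pairs contacts were higher in NPC control at 61 and lower at 10, against 33.3% lower over 28547 pairs of the lists. The median log2 ratio was 0.42, against 0.19 over those 28547 pairs and 0.14 for the total contacts behind the FitHiChIP lists. Scaled to the total contacts, 55 were higher and 17 lower in NPC control, against 46.1% lower over the 28547 pairs. The 8 bins held 1.49 times as many MAPS loops in NPC control as in ESC control (1.17 to 1.90), against 1.46 for the whole lists. ESC control loops were part of the choice, so this ratio and the count of bins that follows are given as a description. More loops in NPC control than in ESC control were found at 7 of the 8 bins, all but Dnpep, against 55.8% of 1121 promoter bins. By FitHiChIP the ratio was 2.10 (1.42 to 3.16), against 1.34.

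Of the pairs that both controls held, 23 of 72 (31.9%, 21.4 to 43.99) were listed in NPC auxin, against 40.0% over the lists. Of the 117 ESC control pairs, 26 (22.2%) were listed in NPC auxin, against 23.8% of all ESC control pairs. That 0 of them were listed in ESC auxin was fixed by the choice of the bins and is not a result. Over all ESC control pairs that share was 22.9%. Cemip had 8 of its 17 ESC control pairs in NPC auxin, Nuak1 6 of 17 and Stox2 5 of 14, and Abtb2 and Adcy3 had none. The ESC auxin and NPC auxin cells differed in cell type and in the time and course of auxin, and these cannot be told apart.

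Loops around the 8 bins were also fewer after auxin. Counting loops with both anchors within 1 Mb of the bin and none in it, MAPS listed 187 in ESC auxin and 376 in ESC control, or 49.7%, against 48.7% for the whole list. The surroundings of Alg10b held 10 loops in ESC auxin and 10 in ESC control. Those of Dnpep held 72 in ESC auxin and 94 in ESC control (76.6%), and those of Abtb2 held 9 in ESC auxin and 35 in ESC control (25.7%). In NPCs the surroundings held 203 loops in NPC auxin and 525 in NPC control, or 38.7%, against 50.3%. The NPC auxin share was 15.8% around Nedd4l (15 loops in NPC auxin, 95 in NPC control), 23.0% around Abtb2 (20 in NPC auxin, 87 in NPC control) and 28.6% around Adcy3 (22 in NPC auxin, 77 in NPC control). Around Alg10b 9 loops were listed in NPC auxin and 11 in NPC control. The bins that held no MAPS loop in NPC auxin thus lay among surroundings with low shares, which Nedd4l, with 13 loops of its own in NPC auxin, had as well.

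Genes of the same families as the 8 were looked at as a list. Of 22 related genes in the table, such as Nuak2, Abtb1, the other adenylyl cyclases and the ubiquitin ligases of the Nedd4 family, 20 had a peak-marked bin. MAPS listed 44 loops at these bins in ESC auxin and 93 in ESC control. Of the 17 with loops in ESCs, 15 had fewer in ESC auxin, 1 more and 1 as many, and 9 had none in ESC auxin, with 1 to 5 in ESC control. Abtb1 held 9 loops in ESC auxin and 23 in ESC control, Btbd11 12 in ESC auxin and 15 in ESC control, and Adcy1 10 in ESC auxin and 12 in ESC control. Adcy8 held 0 in ESC auxin and 3 in ESC control, and 7 in NPC auxin and 30 in NPC control. In NPCs the related bins held 65 loops in NPC auxin and 139 in NPC control, with 12 bins lower and 5 higher in NPC auxin. Over the whole MAPS lists, ESC auxin loops were 48.7% of ESC control loops and NPC auxin loops 50.3% of NPC control loops. The matching share of bins was not counted over promoter bins with so few loops, so these counts are not a result about the families.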

How the data were processed

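H3K4me3 PLAC-seq of 8 samples in 4 groups was analysed from 8 deposited loop lists, 1 per group and caller, as named in the labels. The build is mm10, and BWA and Picard had been used, per the submitters' processing notes, which give no version. Pooling of the 2 samples of a group before calling is not stated. Per the file headers, the MAPS lists give for each pair of 10 kb bins a contact count, the authors' expected background signal, the ratio of count to background, an FDR (used here as a q-value), peak marks, reads per anchor and the GC content of each anchor. The deposited FitHiChIP lists give contact counts, reads covering each anchor, the expected signal, the fraction of contacts expected per pair and a q-value.

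The members and gene lists were chosen with earlier results of these data known. From the deposited counts, loops with an anchor in each of the 8 bins were counted per list, with MAPS as the main caller. A pair was shared when both bins were identical. Distance ran from anchor start to anchor start. A bin counted as lower at 4-fold fewer loops, with at least 5 loops in the control list. Shares carry exact Clopper-Pearson 95% intervals, counts exact Poisson ones, and ratios of counts exact intervals from the binomial share. All of them treat loops as independent, which neighbouring loops are not, so they are too narrow. Gene positions and promoter sequences came from RefSeq (GRCm38.p6). All 8 members are named, and the partner genes named are those at the strongest pair, at peak-marked partner bins or holding several partners, the last kind chosen after seeing the values. FitHiChIP lists, FDR under 0.0001, at least 20 contacts, neighbouring bins, a tolerance of 1 bin, clusters of adjacent partners and leaving out each member were the alternatives. Counting was tested on simulated lists. Python 3.11.15, pandas 2.3.3, numpy 2.4.6, scipy 1.17.1 and matplotlib 3.10.9 were used. Results at 2 genes are not reported here.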

Additional observations from a re-analysis of the deposited data

How the results depend on the processing

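Of 62 alternative values, 50 stayed within the counting interval of the reported value or, for counts, moved by at most 1.5 times. For the median distance, the quartiles of the member loops (240 to 430 kb) took the place of a counting interval. Bins at least 4-fold lower in NPC auxin then numbered 3 of 7 with an FDR under 0.0001 and 3 of 8 with at least 20 contacts. With MAPS loops at an FDR under 0.0001, NPC auxin loops were 27.6% of NPC control loops and the ratio of NPC control to ESC control was 2.19. Of the ESC control pairs under that FDR, 75% were listed again in the full NPC control list, which was not filtered, and 14.6% had a partner with a peak mark. In the FitHiChIP lists the last 3 values were 2.10, 71.8% and 51.3%. Allowing 1 bin of difference gave 82.9% of ESC control pairs again in NPC control. The 8 bins held 4 FitHiChIP loops in ESC auxin, and 1 MAPS loop when neighbouring bins were counted. Leaving out each member in turn gave 1 to 2 bins at least 4-fold lower in NPC auxin, with 1 when Abtb2 or Adcy3 was left out. It gave 32.1 to 42.8% of NPC control loops in NPC auxin, ratios of NPC control to ESC control of 1.31 to 1.58, 58.7 to 65.0% of pairs again in NPC control and 19.4 to 26.0% of partners with a peak mark. The median distance of the ESC control loops kept to 265 to 410 kb under its 3 alternatives. The cause of these shifts was not tested. No paired analysis was possible because each group has 1 list per caller, with no column per sample. A list without a loop does not show that contacts were absent, and the depth per sample is unknown.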

Other observations

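Among the 5 promoter bins outside the 8 whose MAPS loops over the 4 lists lay nearest to the median of the 8 (0 in ESC auxin, 14 in ESC control, 9.5 in NPC auxin and 20.5 in NPC control, as log2 of loops plus 1) were those of Aph1b, Cyp51, Chst2 and Apbb2. Aph1b, which encodes a gamma-secretase subunit, held 0 loops in ESC auxin, 12 in ESC control, 11 in NPC auxin and 18 in NPC control. Cyp51, an enzyme gene of sterol synthesis, held 0 in ESC auxin, 11 in ESC control, 11 in NPC auxin and 19 in NPC control. Chst2, a sulfotransferase gene, held 0 in ESC auxin, 10 in ESC control, 11 in NPC auxin and 27 in NPC control. Their distances from the median ran from 0.34 for Aph1b to 0.63 for Apbb2 over 4 lists, and the likeness is a description of loop numbers.

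There were 11 other promoter bins that held 0 loops in ESC auxin and at least 13 in ESC control, and 9 of them had at least 5 loops in NPC control. Of the members 2 of 8 held at least 4-fold fewer loops in NPC auxin than in NPC control, against 8 of these 9 bins, a difference that was not tested. Ptger4, a prostaglandin receptor gene, held 6 loops in NPC auxin and 49 in NPC control, and Fst, the gene of the activin antagonist follistatin, held 8 in NPC auxin and 43 in NPC control. Nfil3, a bZIP transcription factor gene, held 7 in NPC auxin and 13 in NPC control. Both bins at Npas4, a neuronal activity gene, held 0 in NPC auxin and 3 in NPC control, and 15 each in ESC control.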
